A study of Ovis aries with 8 samples.

Results

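Fast fibre contractile genes are the genes for the myosin, troponin, actinin and myosin-binding proteins that build the sarcomere, the contractile unit, of fast-twitch muscle fibres. The set comprised 10 symbols (MYH1, MYH2, MYH4, MYL1, MYLPF, TNNT3, TNNI2, TNNC2, ACTN3 and MYBPC2), and its members were those of them listed in the count table. There were 7 such members among 11247 genes, and all 7 passed the filter on low counts. MYH1, MYL1 and TNNT3 are not analysed here. Poly-A RNA of fresh longissimus thoracis, a back muscle, was sequenced from 8 castrated Dorper and Santa Inês crossbred lambs (Ovis aries), 4 fed a control diet (CON) and 4 fed a diet with 20% soybean molasses (SM20). The sequenced animals were drawn at random from a trial of 20 lambs with 10 per diet. The labels give no age for the lambs and no other treatment, and each library is 1 lamb.

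As background, a sarcomere slides thick filaments of myosin along thin filaments of actin. The myosin heavy chain carries the motor, and its isoform sets the speed and the energy cost of contraction. Fast fibres are classed by heavy chain as IIa (MYH2), IIx (MYH1) or IIb (MYH4), from more to less oxidative, and slow fibres carry the heavy chain of MYH7. Light chains and myosin-binding protein C tune the motor, troponin switches the thin filament on when calcium binds, and alpha-actinin ties thin filaments together at the Z-disc. Longissimus is a mixed muscle rich in fast fibres.

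Total counts per library ran from 8675527 to 11210065, so counting error was small for genes as abundant as these, and the spread between lambs limits the precision. Levels are counts relative to library size (CPM) after TMM scaling, which corrects the library size for a few dominant genes, and are not divided by transcript length, so that levels are compared between lambs and not between genes. CON lamb 1 stood apart from the other libraries. After TMM scaling it had the highest level of 5 of the 7 members. The factor by which TMM scaled its library size, 0.885, was the lowest of the 8, and a low factor raises every CPM. The members took 12.8% of all its counts, within the range of 11.4% to 14.7% over the 8 libraries. Parts of the summed member counts need no scaling. By these CON lamb 1 was still highest for MYLPF (12.6%), TNNI2 (7.65%) and ACTN3 (4.94%). CON lamb 4 was highest for MYH2 (16.6%) and CON lamb 3 for TNNC2 (10.2%). How far the count of 5 depends on the scaling was not tested. The slow fibre list of CON lamb 1, which holds MB (myoglobin) and calcium-handling genes beside contractile genes, summed to 44064 CPM. The other 7 lambs had 19667 to 28685 CPM. Fold changes and list medians that moved by over 1.5 times when it was left out are given both ways. The 20 shared sarcomere genes summed to between 83785 and 129160 CPM per library, so the defining genes of skeletal muscle were abundant in all 8. In bulk tissue, fewer fibres of a type and less RNA per fibre cannot be told apart.

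Of the 7 members 0 passed the threshold of an adjusted p under 0.05 in either direction by the quasi-likelihood test of edgeR. By the same rule 0.0511% of the 9779 genes tested passed. TNNC2, lower in SM20, was the only member with an unadjusted p under 0.05, and 0 members had one when lamb 1 or 4 of either diet was left out. Among all genes tested, 8.45% were lower and 9.84% were higher on that criterion. The DESeq2 Wald test and limma voom also called 0 members, with 2 and 1 members at an unadjusted p under 0.05, all of them lower. The members' log2 fold changes ran from -0.40 for TNNI2 to 0.23 for MYH4, with 5 negative and 2 positive. Their median was -0.15, beside 0.01 over all genes tested. Without CON lamb 1 the median was 0.01 and 3 members were negative.

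**Figure D1:**
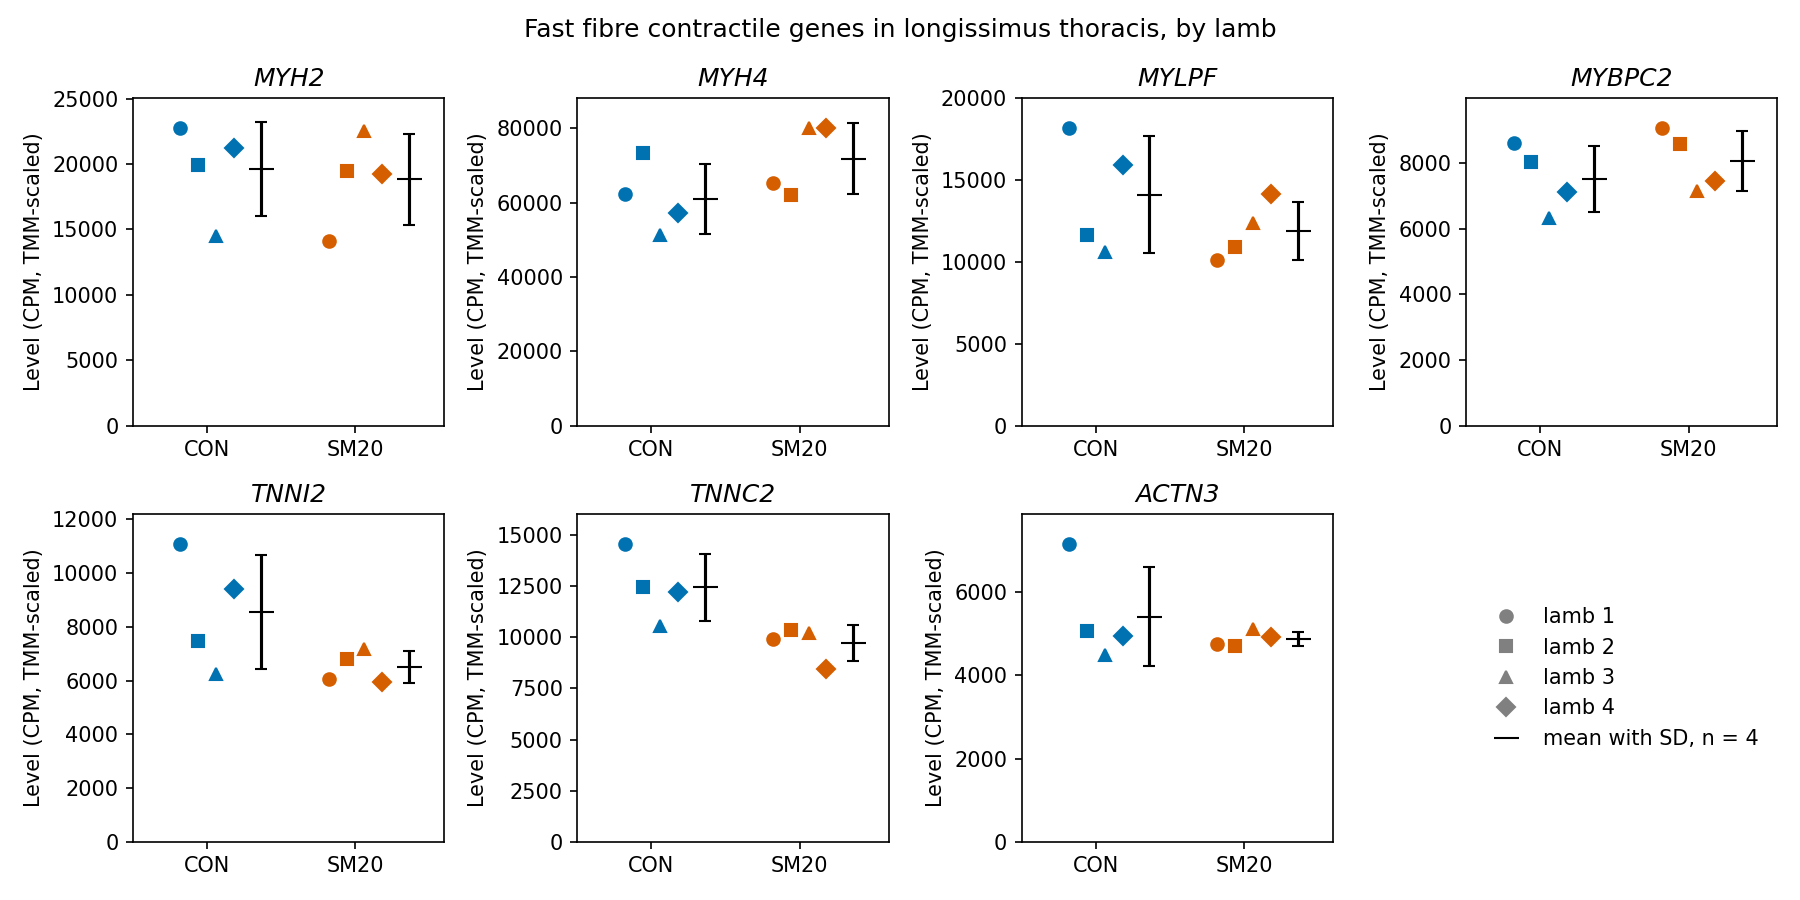
Level of each of the 7 genes in every lamb, in CPM after TMM scaling, with the axis starting at 0. Symbols mark the 4 lambs of each diet, and the bar gives the mean with its SD. TNNC2 is the gene whose diets do not overlap, with SM20 lambs between 8427 and 10356 CPM and CON lambs between 10560 and 14552 CPM.

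The motor isoforms come first. MYH2, the IIa heavy chain, stood at 22777, 19914, 14487 and 21268 CPM in CON lambs 1 to 4 and at 14134, 19442, 22531 and 19242 CPM in SM20 lambs 1 to 4. The diets overlapped almost fully, with CON lamb 3 and SM20 lamb 1 low and the other 6 lambs close together. Its mean was 19612 ± 3611 CPM in CON and 18838 ± 3478 CPM in SM20 (SD, n = 4 per diet). The log2 fold change was -0.06 ± 0.19 (SE) with a 95% interval of -0.47 to 0.36 and an adjusted p of 0.903 by edgeR. Its sign is not settled: it was 0.02 without CON lamb 1, 0.06 without SM20 lamb 1 and 0.0059 with library size alone as the scaling.

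MYH4, the IIb heavy chain by its symbol, had 62460, 73494, 51284 and 57314 CPM in the CON lambs and 65317, 62118, 80175 and 80003 CPM in the SM20 lambs, in the same order. SM20 lambs 3 and 4 had the highest levels, and CON lamb 2 lay above SM20 lambs 1 and 2, so the diets overlapped. The means were 61138 ± 9419 CPM in CON and 71903 ± 9542 CPM in SM20 (SD, n = 4 per diet), and the fold change on the log2 scale was 0.23 ± 0.17 (SE, 95% interval -0.13 to 0.60, edgeR adjusted p = 0.489). With library size alone it was 0.30 with an unadjusted p of 0.0338 and an adjusted p of 0.274 by edgeR. In humans, MYH4 gives little or no protein in adult limb muscle. MYH1, MYH2 and MYH4 are close copies of each other that lie in 1 gene cluster in mammals, so reads may have been divided between them. Which transcripts the row labelled MYH4 holds depends on the annotation used for counting, which is not given in the sources used here, and MYH4 was also the member whose symbol matched no symbol or synonym in the RefSeq annotation of ARS-UI_Ramb_v3.0.

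The split between the 2 heavy chains was read within each library, where no scaling between libraries is needed. MYH2 took 26.7%, 21.3%, 22.0% and 27.1% of the summed MYH2 and MYH4 counts in CON lambs 1 to 4. In SM20 lambs 1 to 4 it took 17.8%, 23.8%, 21.9% and 19.4%. CON lambs 1 and 4 had the largest IIa shares and SM20 lambs 1 and 4 the smallest, while the other 4 lambs of the 2 diets were interleaved. The mean share was 24.3 ± 3.03% in CON and 20.7 ± 2.68% in SM20 (SD, n = 4 per diet). The difference of -3.55 percentage points did not pass a two-sided exact permutation test (p = 0.143, with 0.0286 the smallest that 70 assignments allow). These are shares of counts and not of transcripts, and no row labelled MYH1, the IIx gene, is in them. Whether the MYH4 row holds IIx reads is not known, so the split cannot be read as IIa against IIb alone.

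**Figure D2:**
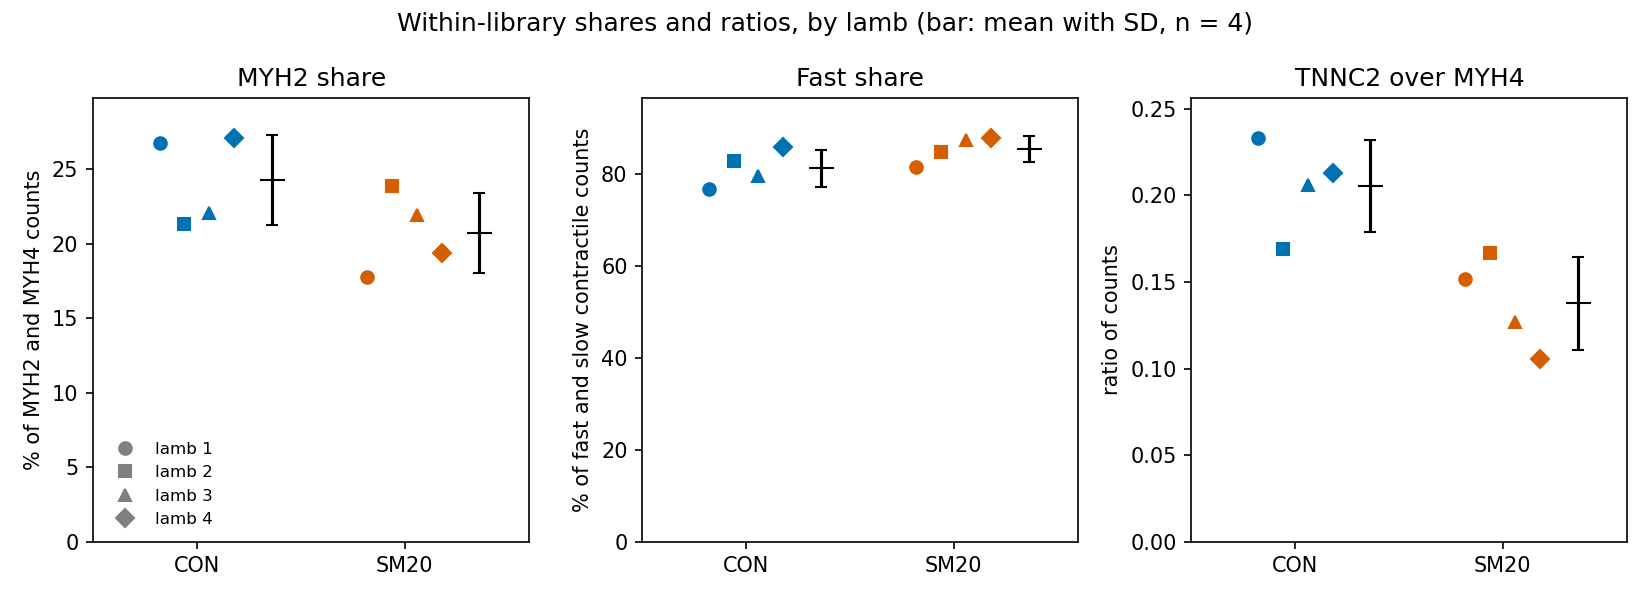
Measures read within each library, with symbols for the 4 lambs of each diet and bars for the mean with its SD. The left panel gives MYH2 as a percentage of MYH2 and MYH4 counts, and the right panel the ratio of TNNC2 to MYH4 counts. The middle panel gives the 7 fast genes as a percentage of the summed counts of these genes and the slow list, which includes MB (myoglobin). The diets overlap in the left and middle panels, and in the right panel the SM20 lambs lie between 0.105 and 0.167, below the CON lambs at 0.169 to 0.233.

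Beside the motor, MYLPF encodes the regulatory light chain of fast myosin, which binds the neck of the heavy chain and can be phosphorylated. Its levels were 18194, 11665, 10610 and 15942 CPM in CON lambs 1 to 4 and 10117, 10932, 12382 and 14171 CPM in SM20 lambs 1 to 4. CON lambs 1 and 4 were the highest, and CON lambs 2 and 3 lay within the range of SM20. The log2 fold change was -0.24 ± 0.20 (SE, n = 4 per diet, edgeR adjusted p = 0.540), with a 95% interval of -0.68 to 0.19. Without CON lamb 1 it was -0.10.

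MYBPC2 encodes the fast form of myosin-binding protein C, which sits on the thick filament and restrains the myosin heads. CON lambs 1 to 4 had 8616, 8013, 6322 and 7097 CPM, and SM20 lambs 1 to 4 had 9066, 8575, 7140 and 7434 CPM. SM20 lamb 1, the lowest of the 8 for MYH2 and MYLPF, was the highest for MYBPC2, and the diets overlapped. The log2 fold change was 0.10 ± 0.15 (SE, n = 4 per diet, 95% interval -0.23 to 0.43, edgeR adjusted p = 0.762). Leaving out 1 lamb at a time gave 0.03 (CON lamb 3) to 0.17 (CON lamb 1).

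On the thin filament, TNNC2 encodes the calcium-binding subunit of fast troponin. Its levels were 14552, 12448, 10560 and 12216 CPM in CON lambs 1 to 4. In SM20 lambs 1 to 4 they were 9902, 10356, 10189 and 8427 CPM. Every SM20 lamb lay below every CON lamb, though SM20 lamb 2 and CON lamb 3 were close. Over all genes tested, 5.67% had their diets apart in that direction. The means of 12444 ± 1638 CPM in CON and 9718 ± 881 CPM in SM20 (SD, n = 4 per diet) gave a 1.28-fold lower fitted level in SM20. The log2 fold change of -0.36 ± 0.14 (SE, 95% interval -0.68 to -0.04) had an unadjusted p of 0.0316 and an adjusted p of 0.229 by edgeR. Its unadjusted p was 0.0788 with CON lamb 1 left out, 0.0504 with CON lamb 4, 0.0590 with SM20 lamb 1 and 0.0908 with SM20 lamb 4 left out. Over the 16 other settings its adjusted p ran from 0.109 to 0.391, and its log2 fold change stayed negative, between -0.43 and -0.27.

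TNNI2 encodes the inhibitory subunit of the same complex, which holds the thin filament off until calcium reaches TNNC2. It measured 11078, 7480, 6254 and 9389 CPM in CON lambs 1 to 4, and 6065, 6791, 7180 and 5935 CPM in SM20 lambs 1 to 4. CON lambs 1, 2 and 4 lay above all SM20 lambs, and CON lamb 3 lay among them. The log2 fold change was -0.40 ± 0.18 (SE, n = 4 per diet, 95% interval -0.80 to 0.0046, unadjusted p = 0.0522, edgeR adjusted p = 0.277). Without CON lamb 1 it was -0.25, and without CON lamb 3 it was -0.52. TNNT3, the gene of the fast tropomyosin-binding subunit that completes the complex, is not analysed here.

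ACTN3, at the Z-disc, encodes the alpha-actinin of fast fibres that cross-links thin filaments of neighbouring sarcomeres. CON lambs 1 to 4 stood at 7155, 5071, 4492 and 4938 CPM, and SM20 lambs 1 to 4 at 4758, 4714, 5103 and 4931 CPM. CON lamb 1 alone was high, and the other 7 lambs lay between 4492 and 5103 CPM. With CON lamb 1 the log2 fold change was -0.15 ± 0.16 (SE, 95% interval -0.50 to 0.20, edgeR adjusted p = 0.656), and without it 0.01. The coefficient of variation was 21.9% in CON and 3.64% in SM20.

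**Figure D3:**
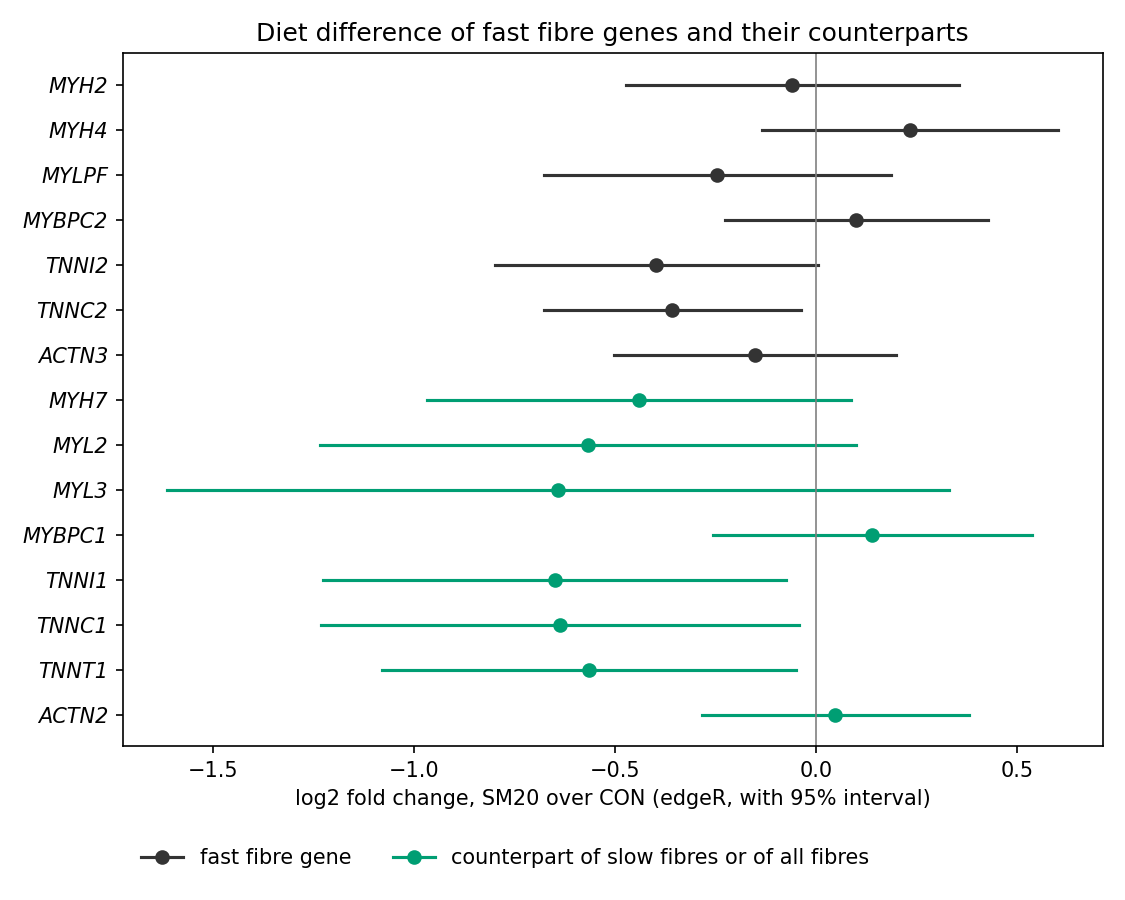
Log2 fold change of SM20 over CON for the 7 fast fibre genes (dark) and for 8 counterparts of slow fibres or of all fibres (green), with 95% intervals from edgeR. Among the fast genes the interval of TNNC2 (-0.68 to -0.04) lies wholly below 0. Among the counterparts those of TNNI1 (-1.23 to -0.07), TNNC1 (-1.23 to -0.04) and TNNT1 (-1.08 to -0.05) do too. No gene shown passes the adjusted threshold.

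The members differed among themselves in which lambs were high. Relative to each gene's own mean over the 8 lambs, CON lamb 1 was 0.59 higher on the log2 scale for TNNI2, 0.51 for MYLPF, 0.49 for ACTN3 and 0.41 for TNNC2. For MYH4 it was slightly below the mean, at -0.08. CON lamb 4 was above the mean for TNNI2 (0.35) and MYLPF (0.32) and below it for MYH4 (-0.20). In SM20 lamb 4 MYH4 was at 0.28 and MYLPF at 0.15, while TNNI2 was at -0.31 and TNNC2 at -0.38. CON lamb 3 was below the mean for all 7 members, from -0.39 for MYH2 to -0.05 for TNNC2.

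Across the 8 libraries TNNI2 and TNNC2 had a Pearson r of 0.89 and a Spearman rho of 0.88, and r was 0.79 without CON lamb 1. MYH4 and TNNC2 had r = -0.36, and MYBPC2 had r between -0.01 and 0.38 with the 6 other members. These values include the difference between the diet means. With each diet's mean removed, r was 0.84 for TNNI2 and TNNC2 and 0.12 for MYH4 and TNNC2. For MYBPC2 it then ran from 0.06 with MYH4 to 0.73 with TNNC2. These are descriptions over 8 lambs of 2 diets, given with no test, of levels that share 1 scaling factor per library. The ratio of TNNC2 to MYH4 counts, which needs no such factor, was 0.233, 0.169, 0.206 and 0.213 in CON lambs 1 to 4 and 0.152, 0.167, 0.127 and 0.105 in SM20 lambs 1 to 4. Every SM20 ratio lay below every CON ratio, by a narrow margin between CON lamb 2 and SM20 lamb 2. The pair was chosen after the levels had been seen, so the ratio has no test. The ratio of TNNI2 to TNNC2 counts was 0.681 ± 0.097 in CON and 0.669 ± 0.044 in SM20 (SD, n = 4 per diet), with the diets overlapping and a difference of either sign as each lamb was left out.

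**Figure D4:**
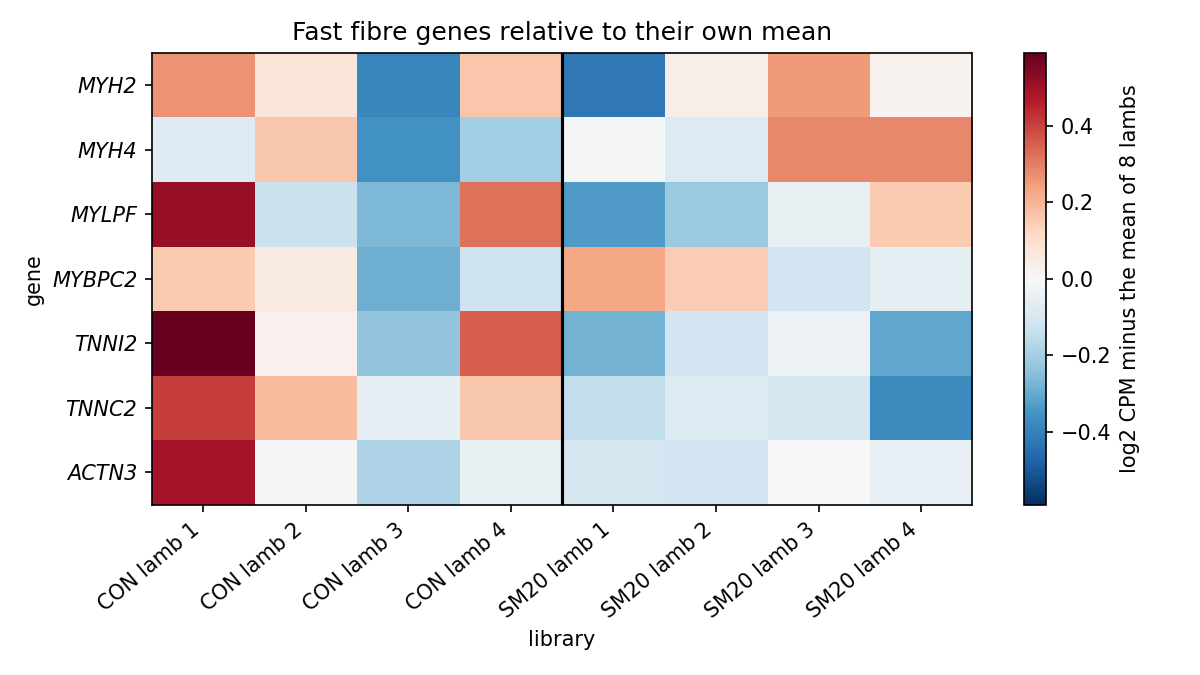
Log2 CPM of each gene minus its own mean over the 8 lambs, by library, with red above and blue below the mean and a line between the diets. CON lamb 1 is high for TNNI2 (0.59), MYLPF (0.51), ACTN3 (0.49) and TNNC2 (0.41) and not for MYH4 (-0.08), and CON lamb 3 is below the mean for all 7 genes.

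As parts of the summed counts of the 7 members, TNNC2 made up 10.1%, 9.02%, 10.2% and 9.53% in CON lambs 1 to 4 and 8.30%, 8.42%, 7.04% and 6.01% in SM20 lambs 1 to 4. These shares did not overlap either, and like the ratio above they were chosen after the levels had been seen. MYH4 made up 47.6 ± 4.58% in CON and 54.4 ± 2.79% in SM20 (SD, n = 4 per diet), with the diets overlapping. The 7 members together took 11.4% to 13.2% of all counts in CON and 12.3% to 14.7% in SM20.

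Each fast protein has a counterpart from slow fibres or from all fibres. MYH7, the slow heavy chain, had a log2 fold change of -0.44 ± 0.24 (SE, edgeR adjusted p = 0.354), and the slow light chains MYL2 and MYL3 had -0.57 ± 0.30 and -0.64 ± 0.44. Slow troponin genes TNNI1, TNNC1 and TNNT1 had -0.65 ± 0.26, -0.64 ± 0.27 and -0.56 ± 0.23, with edgeR adjusted p-values of 0.225, 0.244 and 0.236. CON lamb 1 was the highest of the 8 for each of these 6 genes, and all 6 values were nearer to 0 once it was left out. They were then -0.24 for MYH7, -0.18 for MYL2, 0.15 for MYL3, -0.38 for TNNI1, -0.32 for TNNC1 and -0.29 for TNNT1. Leaving out CON lamb 3, CON lamb 4 or SM20 lamb 1 moved all 6 further from 0. Without CON lamb 3 they ran from -0.82 for MYL3 to -0.48 for MYH7. Without CON lamb 4 they ran from -0.89 for MYL3 to -0.62 for MYH7, and without SM20 lamb 1 from -0.88 for MYL3 to -0.60 for MYH7. ACTN2 and MYBPC1, which are made in fast fibres too, had 0.05 ± 0.15 and 0.14 ± 0.18. Leaving out CON lamb 1 put MYBPC1 at 0.32 and ACTN2 at 0.08. Leaving out CON lamb 4 put MYBPC1 at 0.03, and ACTN2 ran from -0.034 to 0.14 as each lamb was left out.

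Beside contractile genes, the slow list held MB, ATP2A2, CASQ2, MYOZ2, CSRP3 and ANKRD2. MB, myoglobin, was its largest entry in CON lamb 1, at 17419 of 44064 CPM, so the list is not of contractile genes alone. In the slow list 10 of 12 tested genes were negative, with a median log2 fold change of -0.42. By edgeR 0 were called and 3 were lower with an unadjusted p under 0.05. Over all genes tested, 4817 of 9779 were negative and 8.45% were lower on the unadjusted criterion. With CON lamb 1 left out, 8 of 12 slow list genes were negative, their median was -0.16 and 0 had an unadjusted p under 0.05. That last count was also 0 when SM20 lamb 2, 3 or 4 was left out, and 6 when CON lamb 3 was. The fast genes took 76.7%, 82.8%, 79.5% and 85.8% of the summed counts of the members and the whole slow list in CON lambs 1 to 4. In SM20 lambs 1 to 4 they took 81.5%, 84.7%, 87.3% and 87.7%. The share was lowest in CON lamb 1 and highest in SM20 lambs 3 and 4, and the diets overlapped. The mean difference of 4.11 percentage points was 2.60 without CON lamb 1. MYH4 counts were 7.83 ± 2.48 times those of MYH7 in CON and 12.1 ± 3.19 times in SM20 (SD, n = 4 per diet), with the diets overlapping. The ratio of MYLPF to MYL2 counts was 5.20 ± 2.31 and 5.70 ± 1.12, also overlapping, and the sign of its difference is not settled. SM20 minus CON was 0.50 with all lambs, and leaving out CON lambs 1, 2 and 4 in turn gave -0.10, -0.09 and 1.51.

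Genes known to accompany the fast programme were read from further lists, and edgeR called 0 genes in each of them. Over all genes tested, 4817 of 9779 were negative, and 8.45% were lower at an unadjusted p under 0.05 by edgeR. Of 8 tested calcium-handling and Z-disc genes of fast fibres 6 were negative, with a median log2 fold change of -0.10 and 0 at an unadjusted p under 0.05. The smallest p-values there belonged to MYOZ1, a calcineurin-binding Z-disc protein (-0.15 ± 0.14, SE), and CASQ1, the calcium store of the sarcoplasmic reticulum (-0.16 ± 0.15). With CON lamb 1 left out, CASQ1 was at -0.06, 4 of the 8 genes were negative and the list median was 0.0040. Leaving out SM20 lamb 1 put MYOZ1 and CASQ1 at -0.08. Of 14 glycolytic and phosphagen genes 12 were negative, with a median of -0.24 and 3 at an unadjusted p under 0.05, all lower. They include AK1, adenylate kinase (-0.49 ± 0.17, edgeR adjusted p = 0.172), and PGAM2, the muscle phosphoglycerate mutase (-0.42 ± 0.17, edgeR adjusted p = 0.236). With CON lamb 1 left out, the list median was -0.14, PGAM2 was at -0.24 with an unadjusted p of 0.109, and AK1, at -0.35, was the 1 gene under 0.05. The count under 0.05 ran from 1 to 5 as each lamb was left out.

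Sarcomere genes shared by all fibres leaned the other way, with 15 of 20 positive and a median of 0.10. Over all genes tested, 4962 of 9779 were positive. On the unadjusted criterion 2 were higher and 2 lower, with 0 lower when CON lamb 1, SM20 lamb 1 or SM20 lamb 4 was left out. The 2 lower genes were TPM2 (-0.55 ± 0.20, SE) and TMOD4 (-0.29 ± 0.12), with edgeR adjusted p-values of 0.184 and 0.244. For TMOD4 every SM20 lamb lay below every CON lamb, as for 5.67% of all genes tested. Leaving out CON lamb 1 gave a median of 0.18, and leaving out CON lamb 4 gave 0.01 with 10 of 20 positive. SMYD1, a methyltransferase needed for myosin assembly, had 0.41 ± 0.13 (SE, edgeR adjusted p = 0.136), from 117 ± 13.4 to 155 ± 14.6 CPM (SD, n = 4 per diet), with every SM20 lamb above every CON lamb. Over all genes 6.54% had their diets apart in that direction. NEB, the thin-filament ruler, did as well (0.65 ± 0.14, edgeR adjusted p = 0.0873). NEB did pass when the library size alone was used for scaling (edgeR adjusted p = 0.0467) and by DESeq2 (adjusted p = 5.3e-04).

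Developmental and rare sarcomere genes had 6 of 8 negative, beside 4817 of 9779 over all genes tested, and a median of -0.02. MYH6, whose heavy chain is close in sequence to that of MYH7, had -0.59 ± 0.26 (SE, edgeR adjusted p = 0.264), and it was the 1 gene of the list at an unadjusted p under 0.05. Without CON lamb 1 it was at -0.38 with an unadjusted p of 0.157, 4 of the 8 genes were negative and the list median was 0.02. ACTC1, cardiac actin, stood at 113, 386, 90.3 and 150.5 CPM in CON lambs 1 to 4 and at 47.0, 1703, 363 and 108 CPM in SM20 lambs 1 to 4. SM20 lamb 2 was far above the rest, and the log2 fold change of 1.59 ± 0.91 (SE, edgeR adjusted p = 0.373) became -0.10 once that lamb was left out.

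Among regulators of fibre type and muscle growth, 22 of 29 tested genes were positive, with a median of 0.29. Over all genes tested, 4962 of 9779 were positive. On the unadjusted criterion 6 regulators were higher and 1 lower, beside 9.84% and 8.45% of all genes tested. As each lamb was left out, 2 to 6 regulators were higher and 0 to 2 lower, and their median ran from 0.16 to 0.36. TEAD1, a transcription factor of muscle genes, had 0.50 ± 0.16 (SE, edgeR adjusted p = 0.143). SIX4, a homeobox transcription factor of developing muscle, measured 8.2, 19.5, 21.5 and 16.6 CPM in CON lambs 1 to 4 and 24.5, 23.9, 27.0 and 30.2 CPM in SM20 lambs 1 to 4. All SM20 lambs lay above all CON lambs, as for 6.54% of all genes tested, and CON lamb 1 was the lowest. Its log2 fold change was 0.68 ± 0.25 (SE, edgeR adjusted p = 0.185), or 0.46 without CON lamb 1.

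Genes whose level over the 8 lambs was most like the mean of the 7 members were sought among 9736 others with at least 1 CPM. The most alike was CKM, muscle creatine kinase, with a Pearson r of 0.98 and 0.94 without CON lamb 1, followed by FGD1 (0.95), ST3GAL4 (0.95), IGFALS (0.95) and ACTA1 (0.94), the last of which encodes skeletal alpha-actin. Without CON lamb 1 r was 0.93 for FGD1, 0.86 for ST3GAL4, 0.91 for IGFALS and 0.85 for ACTA1. The most opposed were BMP4 (-0.93), GUCY1A1 (-0.93) and SEMA4B (-0.92), at -0.84, -0.90 and -0.81 without CON lamb 1. FGD1, IGFALS, BMP4 and SEMA4B averaged between 2.96 and 5.16 CPM, so their levels rest on few reads. All of these values are descriptions over 8 libraries, without a test, picked from many genes.

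Marker genes of other cell types were detected in every list, and no marker listed in the table was at 0 in all libraries. Summed over a list, CON and SM20 lambs ranged over 495 to 724 and 446 to 682 CPM for 8 endothelial genes, 1174 to 2136 and 1240 to 2688 CPM for 8 fibroblast genes, and 338 to 478 and 239 to 424 CPM for 6 smooth muscle genes. For 7 adipocyte genes they ranged over 59.1 to 155 and 66.1 to 113 CPM, for 6 macrophage genes over 11.7 to 23.0 and 14.1 to 19.6 CPM, and for 5 satellite cell genes over 18.8 to 29.0 and 26.1 to 32.7 CPM. The 5 neural genes summed to 26.9 to 85.0 and 34.9 to 71.0 CPM, the 4 lymphocyte genes to 2.69 to 5.43 and 3.85 to 9.54 CPM. The 2 erythrocyte genes summed to at most 1.88 CPM in 7 lambs and to 17.0 CPM in SM20 lamb 4. The summed ranges of the diets overlapped in each list. EGFL7 (endothelial, log2 fold change -0.84) and SMTN (smooth muscle, -0.57) had every SM20 lamb below every CON lamb. Their edgeR adjusted p-values were 0.107 and 0.134, and 5.67% of all genes tested had their diets apart in that direction. In these 2 lists 3 of 8 and 1 of 6 genes were positive. The part of these cell types in the levels of the fast genes was not tested.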

How the data were processed

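The authors deposited raw counts, as whole numbers, with 1 row per gene symbol and 1 column per lamb. Per the labels' protocols, RNA came from RNeasy Mini columns and libraries from the TruSeq Stranded mRNA kit. Per the submitters' processing notes, Trim Galore, cutadapt, STAR, featureCounts and DESeq2 were used. Their versions, the build, the annotation and the strandedness of counting are not stated there, so no coordinates are printed. Of the 7 members, 5 matched a RefSeq symbol of ARS-UI_Ramb_v3.0, MYLPF matched as a synonym of MYL11 and MYH4 had no match. The deposited sample sheet gave the diet of the labels for all 8 libraries.

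Diets were compared with edgeR 4.0.16 (R 4.3.3, quasi-likelihood F-test, TMM scaling, diet as the only term, minimum count 10). Of 11247 genes 9779 were tested, and the 1468 others held 0.0735% of counts. P-values are two-sided and Benjamini-Hochberg adjusted over all genes tested, with a threshold of 0.05. SE is the log2 fold change divided by the square root of F, in absolute value, and correlations were taken on log2 CPM (prior count 2). The 2 most similar libraries still differed beyond sampling noise (chi-square over degrees of freedom 21.6). Replicate numbers follow accession order and pair nothing. Alternatives were other scalings, no filter, DESeq2 1.42.0, limma voom 3.58.1 and leaving out each lamb. The fits were tested on simulated data, where 4 of 82 genes changed 1.5-fold passed the threshold. At 2-fold 36 of 56 passed and at 3-fold 54 of 62, with 5 false calls among 99. The largest fitted change of a member was 1.32-fold (TNNI2), so 0 members called does not show that the members were unchanged.

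Named genes are all members, their slow fibre counterparts, the 2 genes of each further list with the smallest p, and the 5 genes most like and 3 most unlike the members. A few others, such as TPM2 and TMOD4, are named to complete what is said of their list. Members and lists were chosen with earlier results of these data known. The MYH2 share with its permutation test and the fast share were planned. The other ratios and shares were added after seeing the data.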

Additional observations from a re-analysis of the deposited data

Results flagged for a closer look

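In groups of 4 lambs, a lamb was picked out where its gap to the nearest other lamb exceeded Dixon's 95% critical share of the group's range, which chance gives in about 1 of 20 groups. This applied to 8 of the 106 groups checked, and none of them was the level of a member itself.

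The ratio of MYH2 to MYH7 counts was 4.14 in CON lamb 4 against 1.89 to 2.19 in the other CON lambs. In SM20 lamb 1 it was 1.75 against 3.57 to 3.75 in the other SM20 lambs. For the ratio of TNNI2 to TNNI1 counts, CON lamb 4 had 27.2 against 12.4 to 14.9, and SM20 lamb 1 had 12.3 against 22.0 to 23.1. The other lambs of each diet were thus close together in both ratios, and the 1 remaining lamb of each diet lay beyond the range of the other diet.

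Slow genes gave the next values. MYL3, a slow light chain, measured 886.5 CPM in CON lamb 1 against 187 to 250.5 CPM in the other CON lambs, and 363 CPM in SM20 lamb 1 against 203 to 227 CPM. TNNC1, slow troponin C, measured 1294 CPM in SM20 lamb 1 against 788 to 873 CPM. MYOZ1 was low in the same lamb, at 3590 CPM against 4358 to 4455 CPM.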

How the results depend on the processing

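The members called stayed at 0 in each direction in all 16 other settings, with 0 to 2 members lower and 0 or 1 higher at an unadjusted p under 0.05. The median of the members ran from -0.23 without CON lamb 3 to 0.01 without CON lamb 1, where it was the only setting above 0. Over all genes, 5 were called, against 1 with RLE scaling, 1 with upper-quartile scaling, 0 without the filter, 446 with DESeq2 and 0 with limma voom, and 0 when any 1 lamb was left out (1476 to 1876 genes at an unadjusted p under 0.05). The median of all genes moved by at most 0.05. NEB was called with library size alone and with DESeq2.

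Some fold changes changed sign. On the log2 scale MYH2 was 0.0059 with library size alone, and -0.18 to 0.056 when a lamb was left out. Leaving out a lamb gave ranges of -0.23 to 0.013 for ACTN3, -0.89 to 0.15 for MYL3, -0.034 to 0.14 for ACTN2 and -0.10 to 2.23 for ACTC1. ACTN2 was negative in 3 of those settings, at -0.034 (CON lamb 3 left out), -0.0017 (CON lamb 4) and -0.014 (SM20 lamb 3). The cause was not tested. The difference in MYH2 share ran from -4.58 to -2.56 percentage points (exact permutation p = 0.114 to 0.286, smallest possible 0.0571), and in fast share from 2.60 to 5.66. Counts divided by protein length were not run, since no lengths were used here. No paired analysis was possible because the labels give no shared replicate numbers.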

Other observations

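The table also holds a row labelled MYL1b, which matched no symbol or synonym in the RefSeq annotation used and was not counted as a member. It measured 11959, 9382, 7582 and 10195 CPM in CON lambs 1 to 4 and 5692, 7771, 8396 and 11679 CPM in SM20 lambs 1 to 4. The diets overlapped, with CON lamb 1 and SM20 lamb 4 highest and SM20 lamb 1 lowest. Its log2 fold change was -0.22 ± 0.22 (SE, n = 4 per diet, edgeR adjusted p = 0.630), and leaving out 1 lamb gave -0.08 (SM20 lamb 1), -0.11 (CON lamb 1) and -0.43 (SM20 lamb 4).

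Heavy chains of developing muscle were also counted. MYH3, the embryonic form, ranged over 768 to 1155 CPM in CON and 673 to 1110 CPM in SM20, and MYH8, the perinatal form, over 479 to 759 and 610 to 743 CPM. The diets overlapped for both genes. They are close copies of the adult heavy chain genes, and how the counting treated reads that match several copies is not given in the sources used here.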
